A study of Mus musculus with 18 samples.

Results

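Schwann cells are the glia of peripheral nerves, and the adventitia of the aorta carries small nerve fibers that they ensheath. The transcripts described here are 8 genes that are used to recognize these cells: the myelin genes Mbp, Pmp22, Mag, Cnp, Prx and Ncmap, and the general glial genes Sox10 and S100b. They were picked by symbol out of the 54281 genes in the count table of 18 descending aortas, and all 8 were found there. Of the 8, 5 had enough counts to be tested (Mbp, Pmp22, Cnp, Prx and S100b), and 3 did not (Mag, Ncmap and Sox10).

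The aortas came from 3 groups of 6 male mice on the C57BL/6 background. The HGPS mice, a model of Hutchinson–Gilford progeria syndrome, carried a knock-in allele of Lmna (G609G in the labels) that makes progerin from the endogenous locus in every tissue that uses it. They were 64 to 75 d old and are called 2-mo mice. WT mice were 62 to 95 d old (2-mo WT, with 1 mouse of 95 d) or 609 to 762 d old (24-mo WT), and all mice were fed chow. The vessels were perfused with PBS, cut between the end of the arch and the diaphragm and cleaned, and RNA of the whole wall was sequenced after removal of ribosomal RNA.

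In a myelinating Schwann cell, Sox10 switches on the glial program and, with Egr2 (Krox20), the myelin genes. The proteins sit in different places: Mbp and Pmp22 in compact myelin, Mag in the membrane that faces the axon, Cnp in the cytoplasmic channels, periaxin (Prx) in the outer membrane that faces the basal lamina. Ncmap is a small membrane protein of non-compact myelin, and S100b is a calcium-binding protein of all Schwann cells, myelinating or not. Most fibers in an arterial wall are thin autonomic axons without myelin. Several of these genes also have known uses outside nerves: Pmp22 is made in fibroblasts and many other cells, Prx in some endothelia, Cnp widely at low levels, and S100b in adipocytes.

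On GRCm38, Pmp22 (chr11:63128982-63159547, plus strand) and Cnp (chr11:100574904-100591729, plus strand) share chromosome 11, and Mag (chr7:30899176-30914873, minus strand) and Prx (chr7:27499324-27520214, plus strand) share chromosome 7. Ncmap is at chr4:135369576-135398227 (minus strand), Sox10 at chr15:79154908-79165240 (minus strand) and S100b at chr10:76253853-76261159 (plus strand). On the opposite strand, Cnp overlaps Dnajc7, S100b overlaps Dip2a and Prx overlaps the antisense gene Gm15541. The libraries were stranded, but whether strand was used in counting is not given in the sources used here.

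The promoters of 3 members are shown, because Cnp and Prx were measured in the same direction at 24 mo and Pmp22 in the opposite one. They are the 300 bases from 250 before to 50 after the annotated start (RefSeq, GRCm38.p6), written 5′ to 3′ along the gene. Capitals mark matches, on either strand, to ACAAAG or AACAAT, which are core letters bound by Sox factors, or to GCGTGGG, which is bound by Egr factors. Pmp22 has 4 annotated starts, and the most upstream is shown.
Cnp, chr11:100574689-100574988, plus strand: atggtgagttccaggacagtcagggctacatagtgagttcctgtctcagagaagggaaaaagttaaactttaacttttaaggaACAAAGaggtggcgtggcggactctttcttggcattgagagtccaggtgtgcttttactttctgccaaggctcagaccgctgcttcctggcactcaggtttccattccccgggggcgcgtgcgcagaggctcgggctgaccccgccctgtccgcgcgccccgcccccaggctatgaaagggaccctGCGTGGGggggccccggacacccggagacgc
Prx, chr7:27499074-27499373, plus strand: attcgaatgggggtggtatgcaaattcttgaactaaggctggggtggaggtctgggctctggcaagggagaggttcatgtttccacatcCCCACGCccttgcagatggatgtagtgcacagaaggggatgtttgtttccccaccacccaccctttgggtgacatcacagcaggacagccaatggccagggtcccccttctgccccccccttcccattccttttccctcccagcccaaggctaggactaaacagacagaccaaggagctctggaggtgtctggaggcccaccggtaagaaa
Pmp22, chr11:63128732-63129031, plus strand: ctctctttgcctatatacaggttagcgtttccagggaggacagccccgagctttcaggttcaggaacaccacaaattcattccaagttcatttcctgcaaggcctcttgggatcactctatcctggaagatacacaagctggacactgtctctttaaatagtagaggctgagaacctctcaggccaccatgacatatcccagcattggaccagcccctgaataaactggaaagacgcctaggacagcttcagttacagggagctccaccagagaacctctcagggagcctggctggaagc
The Cnp window held ACAAAG 167 bases before the start and GCGTGGG 19 bases after it. The Prx window held GCGTGGG on the minus strand 161 bases before the start. None of these letters occurred in any of the 4 windows of Pmp22 or in the window of S100b. RefSeq windows of 6 of the 8 members were searched, 12 windows in all, and Mbp and Sox10 were not searched. Of the 12 windows, 3 held a Sox match and 3 an Egr match (Cnp, Prx and 1 of the 2 windows of Ncmap). The Sox matches were in Cnp and in 2 overlapping windows of Mag that share the same site. Among all 32851 windows of this kind, 27.0% held a Sox match and 5.04% an Egr match, so a match is only a description of the letters. Mbp and Sox10 are named only.

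The 8 genes spanned more than the range that a whole-aorta library can measure. Total counts per mouse were 12413229 to 21016752 in 2-mo WT, 17838351 to 30844775 in HGPS and 13622602 to 19871697 in 24-mo WT, so that 3 counts in a mouse correspond to a CPM (library-scaled count) of 0.0938 to 0.243. Over all 18 mice, Pmp22 had 59018 counts, whereas Mag had 34, Ncmap 94 and Sox10 103. Each of the 5 tested members had at least 41 counts in every mouse, so none was admitted by 1 group alone. As mean CPM per kilobase of merged exons in 2-mo WT, the order of the levels was Pmp22 (85.9), Cnp (3.56), S100b (2.99), Prx (2.36), Mbp (0.561), Ncmap (0.0988), Sox10 (0.0906) and Mag (0.0083). The mice overlapped between Cnp and S100b, between S100b and Prx and between Ncmap and Sox10 on this scale, so those neighbors in the order cannot be separated.

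**Figure D1:**
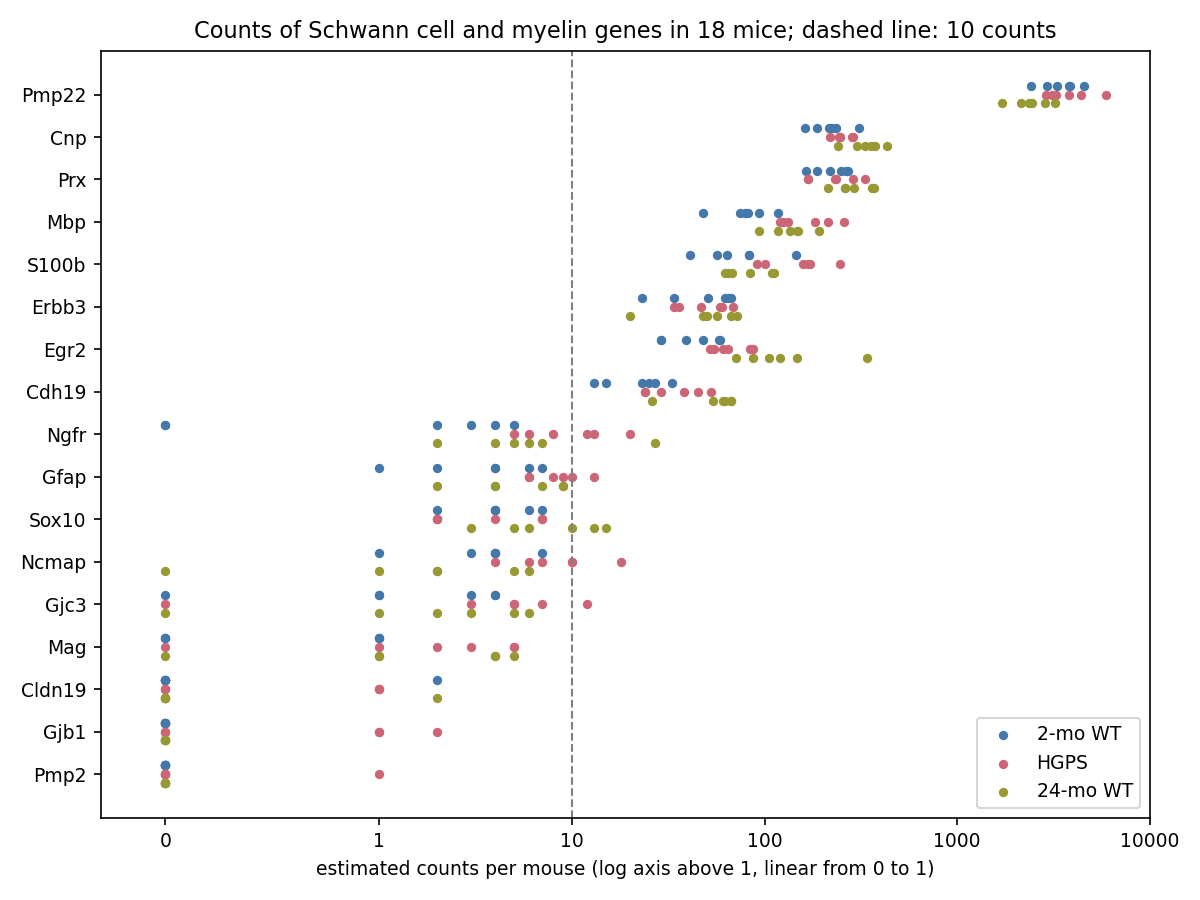
Estimated counts of 17 Schwann cell genes, 1 point per mouse (18 mice, colored by group), on an axis that is linear from 0 to 1 and logarithmic above. Pmp22, Cnp, Prx, Mbp and S100b lie to the right of the 10-count line in every mouse, and Sox10, Mag, Ncmap and Gjb1 are mostly at or to the left of it.

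The label was checked against genes that define a myelinating Schwann cell. The gap junction gene Gjb1 had 4 counts over the 18 mice, the tight junction gene Cldn19 had 7 and the myelin lipid carrier Pmp2 had 1. Neurofilaments, the structural proteins of axons, were as scarce, with 12 counts for Nefl, 10 for Nefm and 16 for Nefh. Of 6 oligodendrocyte genes, Mog, Mobp, Opalin, Olig1 and Olig2 had 7, 2, 0, 16 and 0 counts, whereas Myrf, a transcription factor also made in other tissues, had 3245 (95 to 302 per mouse) and passed the test in no comparison. Gjb1, Cldn19 and Pmp2, markers of myelinating Schwann cells, were therefore at or near 0 in these libraries. Other myelin genes were present in every mouse. Mal had 1008 counts over the 18 mice, Ugt8a 515 and Drp2 226, and none of them passed the test in any comparison. Pmp22, Cnp, Prx, Mbp and S100b were not near 0 either, and the cells that made these transcripts were not identified by these data. In whole tissue, fewer cells of a type and less RNA per cell cannot be told apart.

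Sox10, the defining regulator of Schwann cells, had 2 to 7 counts per mouse in 2-mo WT (median 4), 2 to 7 in HGPS (median 3) and 3 to 15 in 24-mo WT (median 8). The summed counts were 27, 24 and 52 in the 3 groups, and the ranges overlapped in every comparison. Mag, the adhesion protein of the axon-facing membrane, had 0 to 1 counts per mouse in 2-mo WT (3 in all), 0 to 5 in HGPS (16 in all) and 0 to 5 in 24-mo WT (15 in all), and 5 of the 18 mice had none. Ncmap had 1 to 7 counts per mouse in 2-mo WT (23 in all), 4 to 18 in HGPS (55 in all) and 0 to 6 in 24-mo WT (16 in all). At this depth no difference in Mag or Ncmap was detectable. In a fit without a count filter (28882 genes), the adjusted p in the 3 comparisons was 0.195, 0.264 and 0.876 for Mag and 0.318, 0.680 and 0.0851 for Ncmap, in the order HGPS against 2-mo WT, 24-mo against 2-mo WT and HGPS against 24-mo WT. In that fit Sox10 gave 0.467 and 0.390 for the comparisons with 2-mo WT, and was lower in HGPS than in 24-mo WT (log2 fold change −1.44 ± 0.50 SE, adjusted p = 0.0354).

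**Figure D2:**
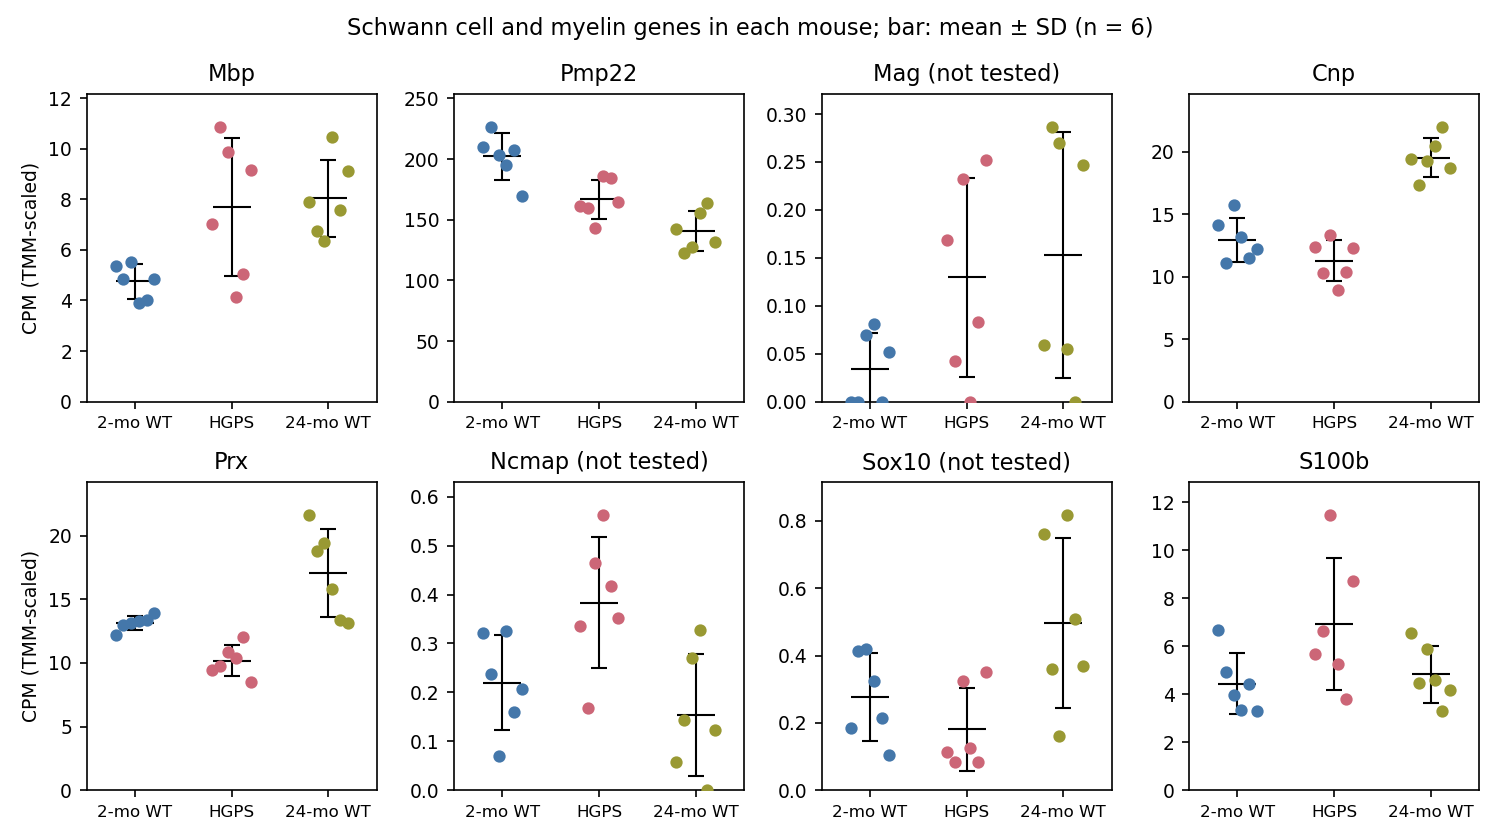
CPM of the 8 members in each mouse (points) with the mean and SD of 6 mice (bars), all axes starting at 0 and scaled to the gene. Mbp is higher in all 24-mo WT mice than in any 2-mo WT mouse, Pmp22 is lower in all of them, Cnp is highest at 24 mo, and the panels of Mag, Ncmap and Sox10 rest on a few counts per mouse.

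The question of the first comparison was what progerin does to the aorta at 2 mo. Relative to 2-mo WT, Mbp and S100b rose in HGPS, and Pmp22 and Prx fell. Cnp did not pass the test. Of the 5 tested members, 2 were thus called higher and 2 lower at an adjusted p under 0.05, beside 43.2% of all 15210 tested genes called in either direction (3340 higher and 3227 lower). No member passed the stricter rule (at least 1.5-fold, with an adjusted p below 0.001) by edgeR or by DESeq2 (4 had an unadjusted p under 0.05 by edgeR), beside 9.50% of all genes.

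Mbp, the basic protein that holds the cytoplasmic faces of compact myelin together, had a lowest, median and highest level of 3.89, 4.86 and 5.52 CPM in 2-mo WT and of 4.16, 8.08 and 10.9 CPM in HGPS. In 4 of the 6 HGPS mice it exceeded every 2-mo WT mouse, and in the remaining 2 it lay within the WT range, so the groups overlapped. Its log2 fold change was 0.69 ± 0.21 (SE; adjusted p = 0.011), a fold of 1.61. S100b had 3.31, 4.21 and 6.66 CPM in 2-mo WT and 3.80, 6.15 and 11.5 CPM in HGPS, with 2 HGPS mice above all WT mice and 4 within their range. Its log2 fold change was 0.63 ± 0.24 (adjusted p = 0.041), and without HGPS replicate 3, the highest mouse, it was 0.43 with an adjusted p of 0.138. The call of S100b also ended in 8 of the other 17 fits that left out 1 mouse and in the fit of these 2 groups alone (adjusted p = 0.0576).

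Pmp22, a membrane protein of compact myelin whose gene dosage is altered in inherited neuropathies, had 169, 205 and 227 CPM in 2-mo WT and 143, 163 and 186 CPM in HGPS. The overlap came from 2-mo WT replicate 6, the 95-d mouse, at 169 CPM. The log2 fold change was −0.28 ± 0.08 (adjusted p = 0.013), a fold of 0.825. Prx had 12.2, 13.2 and 13.9 CPM in 2-mo WT and 8.51, 10.1 and 12.03 CPM in HGPS, and every HGPS mouse was below every 2-mo WT mouse. Its log2 fold change was −0.37 ± 0.11 (adjusted p = 0.014). It was the only member of the 5 whose groups did not overlap in this comparison, beside 21.9% of all tested genes. Cnp, an enzyme of the cytoplasmic channels of myelin, had 11.1, 12.7 and 15.7 CPM in 2-mo WT and 8.94, 11.3 and 13.3 CPM in HGPS (log2 fold change −0.20 ± 0.10, adjusted p = 0.121).

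The second comparison asked what normal aging does. Relative to 2-mo WT, Mbp, Cnp and Prx rose in 24-mo WT and Pmp22 fell, whereas S100b did not pass the test. These were 3 of 5 tested members called higher and 1 called lower, beside 11.7% of all tested genes called in either direction (957 higher and 818 lower). The 24-mo mice did not overlap the 2-mo WT mice for 3 members (Mbp, Cnp and Pmp22), beside 6.28% of all genes, and 1 member (Cnp) passed the stricter rule, beside 2.00%.

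Cnp in 24-mo WT had 17.4, 19.3 and 22.01 CPM, all above the highest 2-mo WT mouse at 15.7 CPM. Its log2 fold change was 0.59 ± 0.10 (adjusted p = 0.00064), a fold of 1.51 that lies just past the 1.5-fold limit. Mbp had 6.37, 7.75 and 10.5 CPM, again above every 2-mo WT mouse, with a log2 fold change of 0.76 ± 0.21 (adjusted p = 0.021). Without 2-mo WT replicate 5 or 24-mo WT replicate 4 the adjusted p of Mbp was 0.0518 and 0.0551. Prx had 13.1, 17.3 and 21.6 CPM, with 4 of the 6 mice above all 2-mo WT mice and 2 among them. Replicates 1 to 3, of 609 to 651 d, had 18.8 to 21.6 CPM, and replicates 4 to 6, of 748 to 762 d, had 13.1 to 15.8 CPM. That split was seen after the values were known, and age within the group was not tested. The log2 fold change of Prx was 0.37 ± 0.11 (adjusted p = 0.039), and the call ended in 8 of the 18 fits without 1 mouse, with an adjusted p of up to 0.0894.

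Pmp22 went the other way, with 122, 137 and 164 CPM in 24-mo WT, all below the lowest 2-mo WT mouse. Its log2 fold change was −0.52 ± 0.08 (adjusted p = 0.00031), a fold of 0.695, and it kept its call in all 18 fits without 1 mouse and in both fits with fat markers described below. S100b had 3.31, 4.51 and 6.56 CPM, nearly the range of the 2-mo WT mice (log2 fold change 0.11 ± 0.24, adjusted p = 0.83).

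Both comparisons use the same 2-mo WT mice, so their difference was tested directly as HGPS against 24-mo WT. Cnp (log2 fold change −0.80 ± 0.10, adjusted p = 4.9e-06) and Prx (−0.74 ± 0.11, adjusted p = 3.4e-05) were lower in HGPS, and every HGPS mouse was below every 24-mo WT mouse for both genes. Pmp22 was higher in HGPS (0.25 ± 0.08, adjusted p = 0.022), although lower than in 2-mo WT. That call of Pmp22 ended without HGPS replicate 5 (adjusted p = 0.0505) and without 24-mo WT replicate 2 (0.0582) or 3 (0.0502). It also ended with the fat marker scores described below in the fit (white fat, adjusted p = 0.0626, and brown fat with skeletal muscle, 0.168). Mbp was not separated between HGPS and 24-mo WT (−0.07 ± 0.20, adjusted p = 0.80), and S100b was 0.52 ± 0.24 higher in HGPS without passing the test (adjusted p = 0.083). Of the 5 members, 1 was called higher and 2 lower, beside 47.3% of all tested genes called in either direction (3618 higher and 3583 lower). The stricter rule was passed by 2 members, beside 12.1%, and the groups did not overlap for 2, beside 22.2%.

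A wider list of 47 genes of Schwann cells, myelin and the node of Ranvier, which includes the 8 members, gave 27 genes with enough counts. In HGPS, 6 of the 27 rose and 2 fell, with a median log2 fold change of 0.15 against 0.0026 for all tested genes. At 24 mo, 10 rose and 2 fell, with a median of 0.37 against 0.0083, and 7 passed the stricter rule. Between HGPS and 24-mo WT, 4 were higher and 9 lower in HGPS, with a median of −0.32 against −0.01. Of the 27, 29.6% were called in HGPS in either direction, a smaller share than the 43.2% of all tested genes. At 24 mo 44.4% were called, beside 11.7% of all tested genes, and the 7 past the stricter rule stand beside 2.00%. Between HGPS and 24-mo WT 48.1% were called, close to the 47.3% of all tested genes.

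**Figure D3:**
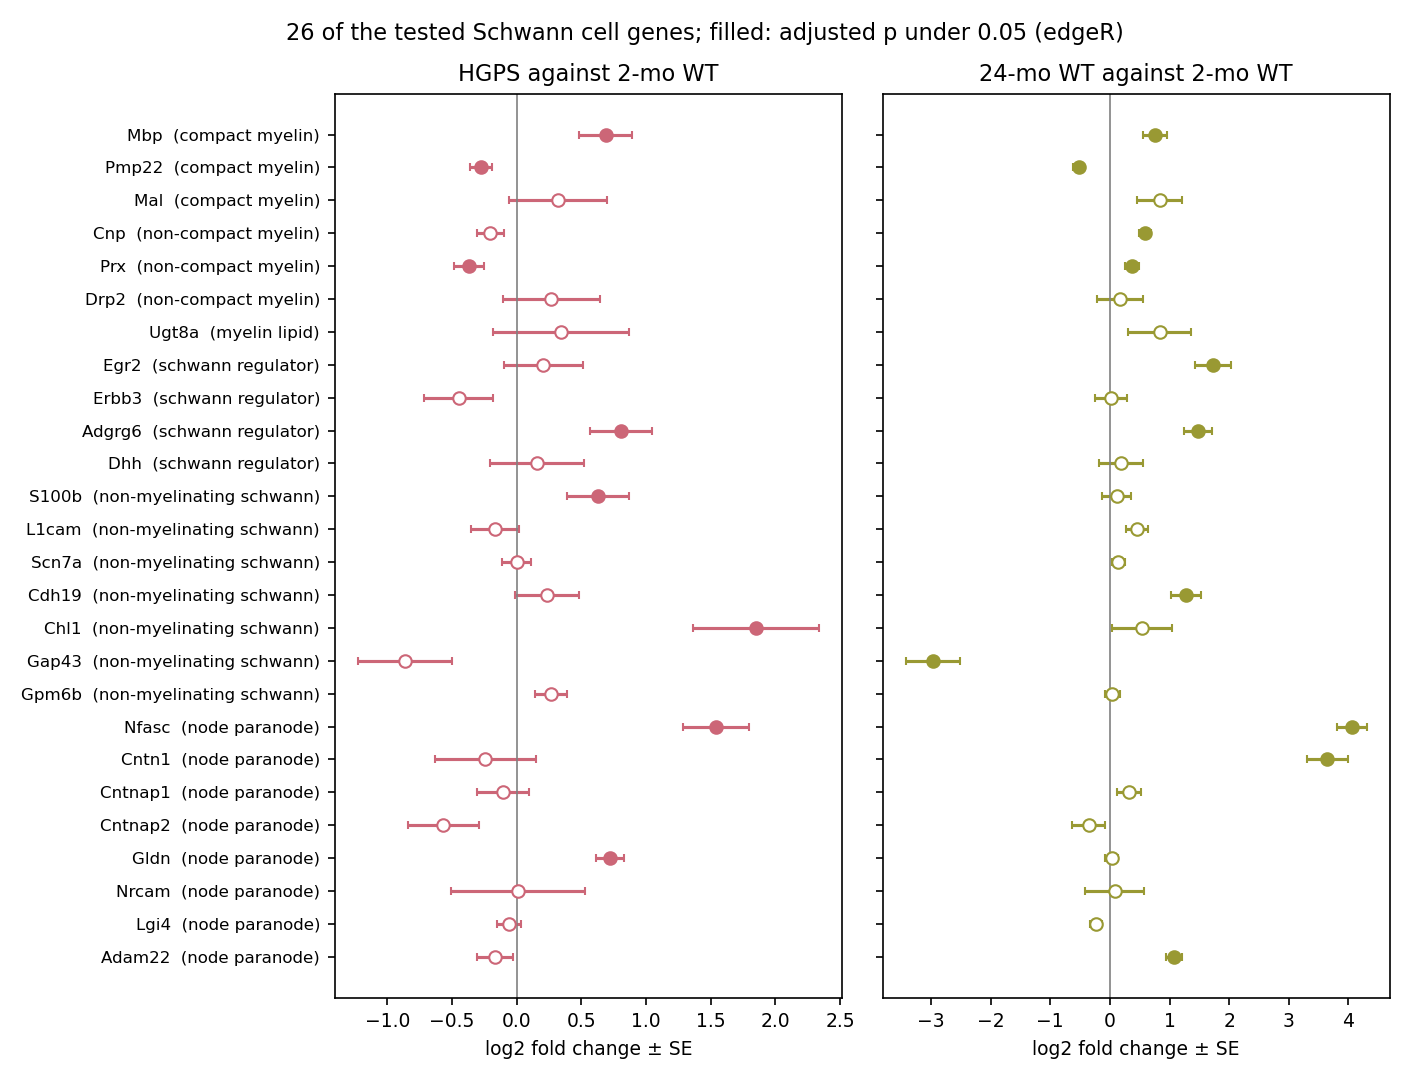
Log2 fold change ± SE (edgeR) of 26 of the 27 tested Schwann cell genes in HGPS (left) and 24-mo WT (right) against 2-mo WT, filled where the adjusted p is under 0.05, on axes of different range. Nfasc at 4.05 and Cntn1 at 3.64 are the largest rises at 24 mo, and Gap43 at −2.97 is the largest fall.

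Among the tested genes of this list, the largest rises at 24 mo were in genes known as adhesion molecules of the node and paranode. The cells that made these transcripts in the aorta were not identified by these data. Nfasc (neurofascin), which joins the glial loop or the node to the axon, had 1.22 to 4.18 CPM in 2-mo WT, 4.43 to 11.7 in HGPS and 32.2 to 48.7 in 24-mo WT, 3 ranges that did not overlap. Its log2 fold change was 1.54 ± 0.25 in HGPS (adjusted p = 9.4e-05) and 4.05 ± 0.25 at 24 mo (adjusted p = 4.1e-09). Cntn1 (contactin), its axonal partner, had 0.415 to 0.811 CPM in 2-mo WT and 3.40 to 12.7 in 24-mo WT (3.64 ± 0.34, adjusted p = 6.7e-07), against 0.313 to 0.557 in HGPS. Adam22, a receptor for secreted Lgi proteins, had 7.86 to 13.6 CPM in 2-mo WT and 19.98 to 30.8 in 24-mo WT (1.07 ± 0.14, adjusted p = 2.6e-05). Its ligand Lgi4, which Schwann cells secrete, had 9.33 to 11.3 and 6.97 to 9.88 CPM (−0.23 ± 0.09, adjusted p = 0.119). Gldn (gliomedin), the Schwann cell protein that gathers sodium channels at nodes, had 20.4 to 30.5 CPM in 2-mo WT and 35.5 to 47.8 in HGPS (log2 fold change 0.72 ± 0.11, adjusted p = 3.4e-05), and was also higher in HGPS than in 24-mo WT (0.69 ± 0.11, adjusted p = 3.7e-05). Cntnap1, Cntnap2 and Nrcam passed the test in neither group.

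Among the regulators, Egr2 had 1.55 to 3.00 CPM in 2-mo WT, 2.30 to 3.53 in HGPS and 3.83 to 18.5 in 24-mo WT. It rose at 24 mo (1.73 ± 0.30, adjusted p = 0.00062), and still did without the mouse at 18.5 CPM (1.33, adjusted p = 0.00053). Adgrg6 (Gpr126), the receptor that starts myelination, rose in HGPS (0.81 ± 0.24, adjusted p = 0.010) and at 24 mo (1.48 ± 0.24, adjusted p = 0.00028). Erbb3, the neuregulin receptor of Schwann cells, had means of 3.00, 2.18 and 3.01 CPM in 2-mo WT, HGPS and 24-mo WT and passed in no comparison. Dhh, a Schwann cell ligand that is also made by endothelium, passed in none either.

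Among genes of non-myelinating and immature Schwann cells, Cdh19 had 0.775 to 1.89 CPM in 2-mo WT and 1.87 to 3.65 in 24-mo WT (1.27 ± 0.25, adjusted p = 0.0017). Chl1, an adhesion molecule, rose in HGPS (1.85 ± 0.49, adjusted p = 0.0048), where HGPS replicate 6 was at 15.4 CPM and the other 5 mice at 1.18 to 5.38. Without that mouse its log2 fold change was 1.07 (adjusted p = 0.0187), and the call of Chl1 ended with the white fat score in the fit (0.91, adjusted p = 0.306) and with the brown fat and muscle scores (1.21, adjusted p = 0.273). Gap43, a growth-cone protein of axons and immature Schwann cells, had 0.592 to 1.55 CPM in 2-mo WT and 0.0509 to 0.234 in 24-mo WT, at the level of a few counts (−2.97 ± 0.46, adjusted p = 0.00019). L1cam passed only between HGPS and 24-mo WT (−0.62 ± 0.19, adjusted p = 0.0097), a call of L1cam that also ended with either kind of score (adjusted p = 0.0591 and 0.182). Ngfr, the low-affinity neurotrophin receptor, had 0 to 5 counts in 2-mo WT, 5 to 20 in HGPS and 2 to 27 in 24-mo WT, too few to be tested. In the fit without a count filter its adjusted p was 0.0588 in HGPS and 0.140 at 24 mo. Scn7a (31397 counts over the 18 mice) and Gpm6b (4491), better measured genes of the same kind, passed in no comparison.

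Genes of axons were read beside these. Of 11 axonal genes, 4 were tested, and 3 rose in HGPS and 2 at 24 mo. Of all tested genes, 43.2% and 11.7% were called in either direction in these 2 comparisons. Stmn2 passed in no comparison (log2 fold change −0.06 in HGPS and −0.14 at 24 mo). Uchl1, an abundant neuronal enzyme, had 39.0 to 67.0 CPM in 2-mo WT, 53.9 to 89.7 in HGPS and 80.1 to 125 in 24-mo WT (log2 fold changes 0.38 ± 0.13, adjusted p = 0.027, and 0.91 ± 0.13, adjusted p = 0.00011). Prph (peripherin), an intermediate filament of autonomic neurons, had 0 to 0.367 CPM in 2-mo WT and 0.781 to 2.04 in HGPS (2.94 ± 0.58, adjusted p = 0.00051). Prph had 0 to 8 counts per mouse in 2-mo WT and a median of 8 at 24 mo, so it passed the count filter only with the HGPS mice. The pigment cell gene Mlana, from another Sox10-dependent lineage, had 23 counts in 2-mo WT, 38 in HGPS and 89 in 24-mo WT in all. It rose at 24 mo (1.88, adjusted p = 0.0009). Mlana passed the count filter only with the 24-mo WT mice. Prph and Mlana were thus each admitted to the test by the group in which they were high, and their 2-mo WT values rest on few counts. The other 4 pigment cell genes on the list (Dct, Pmel, Tyr and Tyrp1) had too few counts to be tested. In the fit without a count filter their log2 fold changes at 24 mo were 1.59, −0.50, −0.02 and −0.72, and none passed (lowest adjusted p = 0.324). The part of any change in nerve or pigment cells in the members' values was not tested.

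Fat markers moved with the HGPS comparison. All 8 brown fat markers on the list rose in HGPS (median log2 fold change 1.92), and their summed level was 111 to 607 CPM in 2-mo WT, 464 to 1693 in HGPS and 122 to 389 in 24-mo WT. Of 7 white fat markers, 6 rose (median 1.56), and their summed level was 255 to 1104, 883 to 3250 and 215 to 944 CPM. No fat marker was at 0 in all mice of a group, and Elovl3 was at 0 in 1 mouse of 2-mo WT. Other tissue markers moved in this comparison too. Of 6 smooth muscle markers, 5 fell in HGPS (median −0.56), and all 5 macrophage markers rose (median 0.80), at a summed level of 240.4 to 345 CPM in 2-mo WT and 410.5 to 563 CPM in HGPS. Of 6 fibroblast markers 3 fell, of 4 tested chondrocyte markers 3 rose and 1 fell, and of 5 endothelial markers 1 rose. Beside these counts, 43.2% of all tested genes were called in either direction, and the fibroblast count is near that share. The part of these tissues in the members' values was not tested.

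Among mice of the same group, Mbp followed the fat markers. With group means removed, its log2 CPM correlated with the mean log2 CPM of the white fat markers over the 18 mice at Pearson r = 0.73 (permutation p = 0.00051, adjusted p = 0.0153 over 30 relations) and Spearman rho = 0.79 (permutation p = 0.0003, adjusted p = 0.0045), and at r = 0.71 without the 2 most extreme mice. For brown fat, r was 0.60 (permutation p = 0.00243, adjusted p = 0.0243), rho 0.65 (adjusted p = 0.0450) and r 0.64 without the 2 extremes. S100b followed the brown fat markers, with r = 0.70 (permutation p = 0.00102, adjusted p = 0.0153), rho = 0.80 (permutation p = 0.00024, adjusted p = 0.0045) and r = 0.67 without the 2 extremes. For Pmp22 and white fat, r was 0.04 (permutation p = 0.875) and rho 0.05. The 30 relations cover the 5 tested members and 6 marker lists (brown fat, white fat, smooth muscle, fibroblast, endothelium and macrophage), and were chosen after the values were seen. Besides these 3, no relation passed an adjusted p of 0.05 by Pearson's r.

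**Figure D4:**
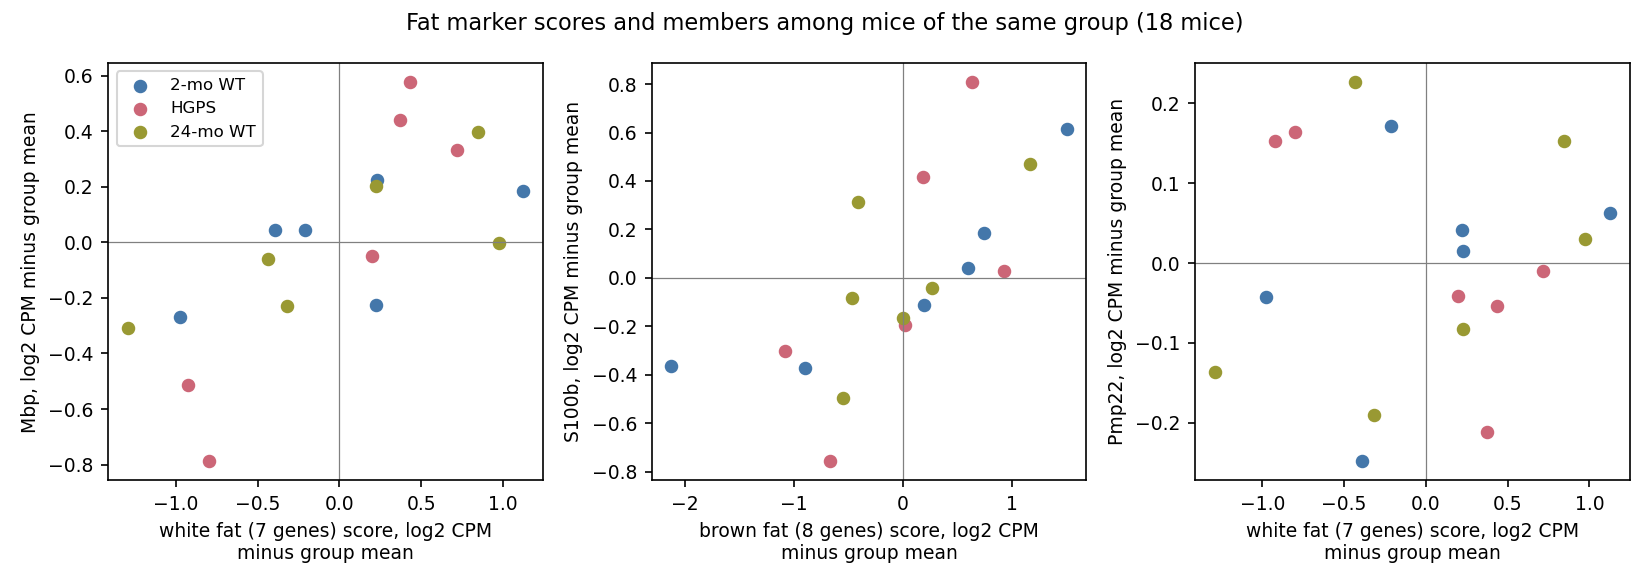
Deviation of Mbp, S100b and Pmp22 from the group mean (log2 CPM, vertical) against the deviation of a fat marker score (mean log2 CPM of its genes, horizontal), 1 point per mouse, colored by group. Mbp and S100b rise with the scores (r = 0.73 and 0.70), and Pmp22 does not (r = 0.04).

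With the white fat score as a covariate, the log2 fold change of Mbp in HGPS was 0.09 (adjusted p = 0.791) and that of S100b 0.12 (adjusted p = 0.771). With the brown fat and skeletal muscle scores, they were 0.10 (adjusted p = 0.832) and −0.12 (adjusted p = 0.792). The muscle score is the mean of only 3 tested genes of 6, which did not move together. In HGPS Tnnt3 rose (log2 fold change 2.00), Ckm fell (−1.08) and Acta1 did not pass. Their counts over the 18 mice were 271, 910 and 180. The falls of Pmp22 (−0.28 and −0.33, adjusted p = 0.0638 and 0.0656) and Prx (−0.28 and −0.33, adjusted p = 0.172 and 0.180) kept their size to within 0.1 on the log2 scale but no longer passed the test. In these fits 0 members were called in HGPS, by edgeR, beside 29.5% (white fat) and 21.8% (brown fat and muscle) of all genes in either direction, and 43.2% with no covariate. All fits treat the scores as measured without error, and genotype and fat content differ together between these groups. At 24 mo the calls of Mbp, Cnp and Pmp22 were kept in both fits, with log2 fold changes of 0.62 and 0.77 for Mbp. The call of Prx was kept with white fat (0.40) and lost with brown fat and muscle (0.44, adjusted p = 0.0763).

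**Figure D5:**
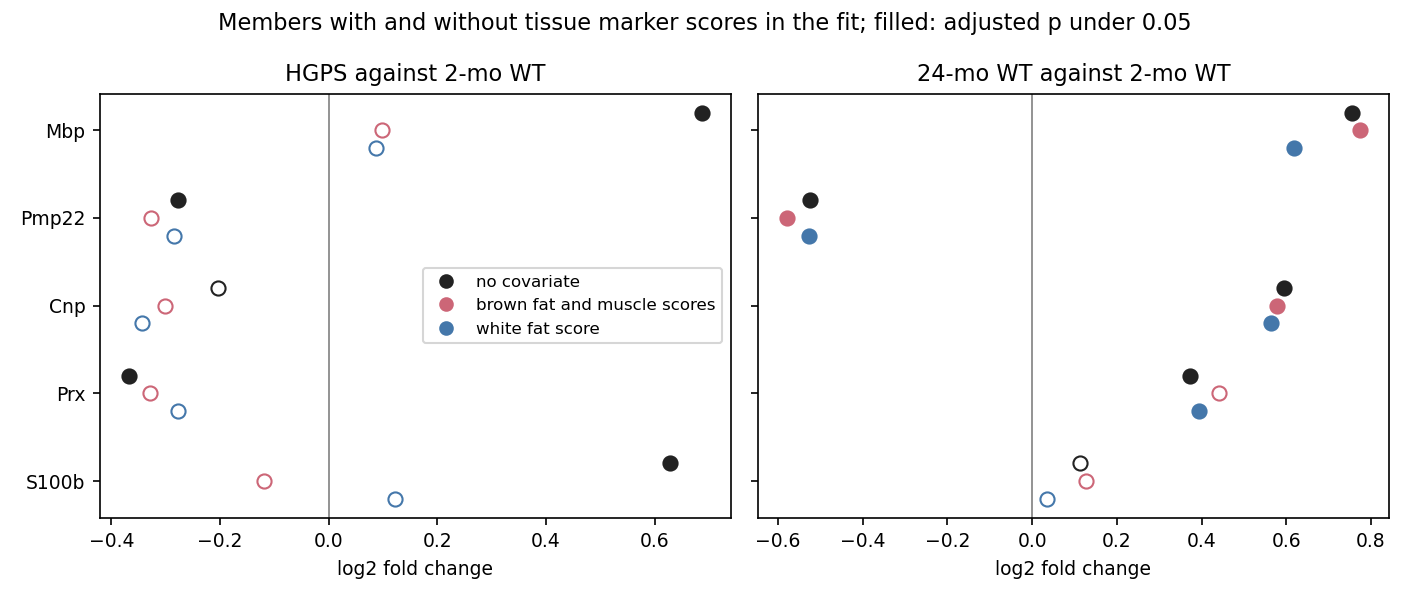
Log2 fold change of the 5 tested members in HGPS (left) and 24-mo WT (right) against 2-mo WT, with no covariate and with 2 kinds of tissue marker scores in the fit, filled where the adjusted p is under 0.05. In HGPS, Mbp goes from 0.69 to 0.10 and 0.09, and S100b from 0.63 to −0.12 and 0.12, whereas the points at 24 mo stay close together.

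Set against the general glial genes in the same mice, the myelin genes gave no call with Sox10 as the reference. For each myelin gene and comparison, log2 CPM of the gene minus log2 CPM of Sox10 was compared between 6 and 6 mice by a two-sided exact permutation test, 18 tests in all. The smallest adjusted p was 0.0519, and 7 of the 18 had an unadjusted p under 0.05. The differences between HGPS and 24-mo WT were 0.94 for Mbp, 1.31 for Pmp22, 0.97 for Mag, 0.27 for Cnp, 0.34 for Prx and 2.09 for Ncmap. That reference had 2 to 15 counts per mouse. Relative to S100b, 2 of the 18 passed, both between HGPS and 24-mo WT. On the log2 scale, Cnp was lower in HGPS by 1.25 (exact permutation p = 0.00216, the smallest that 6 against 6 mice allow, adjusted p = 0.039). Prx was lower by 1.18 (exact permutation p = 0.00433, adjusted p = 0.039). The S100b reference had a log2 fold change of its own in this comparison, 0.52 with no covariate and −0.25 with brown fat and muscle scores. Among mice of the same group, S100b followed the brown fat markers (r = 0.70). These 2 differences therefore hold the change of S100b as well as that of the myelin gene, and the part of fat was not tested.

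Few pairs of members passed a test of covariation among mice of the same group. Of the 28 pairs, 1 passed an adjusted p of 0.05 over the pairs (Pmp22 with Mag, r = −0.77, permutation p = 0.00101, adjusted p = 0.0283, rho = −0.71, adjusted p = 0.112), and it rests on the 0 to 5 counts of Mag, with r = −0.78 without the 2 extremes. Between Sox10 and S100b, r was 0.34 (permutation p = 0.188, adjusted p = 0.647) and rho 0.34. Between Mbp and Cnp, r was 0.55 (permutation p = 0.0467, adjusted p = 0.544) and rho 0.42.

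The genes of mean count at least 50 whose deviations from the group means were most like those of a member were picked from 12018. The 8 most like Pmp22 (r from 0.88 to 0.81 over 18 mice) were Plce1, Olfml1, Nrep, Usp48, Phkg1, Arhgap29, Hey1 and Ppm1e. Of the 8 most like S100b (0.85 to 0.80), 7 were Egln3, Sephs2, Gm10053, Dbi, Gramd4, Amy1 and Ndufb4, and those most like Cnp (0.82 to 0.72) were C1rl, Glis3, Lrrc20, Hint2, Gatd1, Abcb6, Edem2 and Depp1. For Mbp (0.90 to 0.86, added after the values were seen) 7 of the 8 were Gpam, Fitm2, Cat, Acsl1, Apmap, Mgst1 and Oplah, and for Prx (0.83 to 0.78, added likewise) Gne, Itga3, Spef1, Flot2, Map6, Hip1, Osbpl5 and Pcdhb21. For the mean of Mbp, Mag, Prx and Ncmap (0.82 to 0.76) they were Gm2000, Rrp9, Fdxr, B3gat3, Nab2, Coa6, Rps19 and Fau, and for Sox10 (0.81 to 0.78) Gm16344, Hps1, Ephb3, Ankrd16, Gm17131, Siah1b, Meg3 and Gm38211, and both of these lists rest on members with few counts. No other member is on any of the 7 lists, but Mag, Ncmap and Sox10 had a mean count under 50 and could not be on one.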

How the data were processed

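RNA of 18 descending aortas was measured, 6 per group, with groups taken from the sample labels. Reads were assigned by the authors to GENCODE M23 transcripts (GRCm38.p6) with salmon, and the deposited estimated counts per gene, summed with tximport and given as whole numbers, cover 54281 genes. The labels' processing notes also name Bowtie 0.12.2, whose role is not given in the sources used here. No column lacked a sample. Symbols matched 54107 identifiers, and positions and merged exon lengths came from GENCODE M21 (GRCm38).

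A gene was tested if 6 or more mice had 10 or more counts (15210 genes). TMM normalization and quasi-likelihood tests used edgeR 4.0.16 in R 4.3.3, fitting the 3 groups together (15 residual degrees of freedom), and Benjamini-Hochberg adjustment covered all tested genes. "Rose" and "fell" mean an adjusted p under 0.05. An SE is the size of the log2 fold change over the square root of F. CPM is TMM-scaled, with a prior count of 2 before logs. Correlations used deviations from group means and 100000 permutations of mice within groups. In all 45 pairs of mice of the same group the counts differed by more than sampling noise. Each mouse is 1 sample by its label.

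The members and gene lists were chosen with earlier results of these data known. Named genes are the members, genes of the 47-gene list past an adjusted p of 0.05 in any comparison, Erbb3, Egr2, Gjb1 and Ngfr, and the 8 genes most like a member. A few of these are counted in the totals but not reported here by name. Further markers (myelin, non-myelinating Schwann cell, axon, pigment cell, oligodendrocyte, fat) were named with their values known. Alternatives were DESeq2 1.42.0, other size factors and filters, a replicate block, the compared groups alone, marker scores as covariates and each mouse left out. The fit was tested on simulated counts.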

Additional observations from a re-analysis of the deposited data

Results flagged for a closer look

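Among 69 sets of 6 mice (23 genes in 3 groups), 8 held a mouse that stood apart from the other 5 by more than Dixon's 95% limit, where chance alone gives about 1 in 20. None of the 8 concerned a member. HGPS replicate 6 was high for 3 genes: Chl1 at 15.4 CPM (the others at 1.18 to 5.38), Nfasc at 11.7 CPM (4.43 to 6.55) and Cdh19 at 2.67 CPM (1.00 to 1.60). In 24-mo WT, replicate 4 was high for Egr2 at 18.5 CPM (3.83 to 9.06) and for Adam22 at 30.8 CPM (19.98 to 22.9), replicate 1 was high for Ngfr at 1.58 CPM (0.123 to 0.430), and replicate 2 was low for Cdh19 at 1.87 CPM (3.33 to 3.65). In 2-mo WT, replicate 6, the 95-d mouse, was high for Nfasc at 4.18 CPM (1.22 to 2.19).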

How the results depend on the processing

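The members called at an adjusted p under 0.05 numbered 3 to 4 in HGPS, 2 to 4 at 24 mo and 2 to 4 between HGPS and 24-mo WT when each mouse was left out, and 10 to 12 Schwann cell genes were called at 24 mo, 7 to 9 in HGPS and 12 to 14 between them. The 2 at 24 mo came without 2-mo WT replicate 5, and the 2 between HGPS and 24-mo WT without 24-mo WT replicate 2 or 3. Under the stricter rule the counts were 0 to 0, 0 to 1 and 2 to 2, and the single call at 24 mo, Cnp, was lost without any of 10 mice. It was also 0 with no count filter, with the replicate block and with either kind of fat score, and the stricter count between HGPS and 24-mo WT was 0 with brown fat and muscle scores. With those scores 0 members and 3 Schwann cell genes were called in HGPS, and with the white fat score 0 and 5. DESeq2 and the other size factors moved no count of members or Schwann cell genes by over 1.5 times. Limits of depth bear on Mag, Ncmap and Sox10.

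The same replicate numbers do not pair the mice: 2 of 18 same-numbered pairs correlated over 0.1 (range −0.162 to 0.172). With the replicate block, Prx at 24 mo was 0.36 (adjusted p = 0.0766). With brown fat and muscle scores, S100b reversed to −0.12 in HGPS against 2-mo WT and to −0.25 (adjusted p = 0.577) against 24-mo WT, and with the white fat score Mbp passed between HGPS and 24-mo WT (−0.53, adjusted p = 0.0303). The cause was not tested. Without single mice, the log2 fold change of Mbp between HGPS and 24-mo WT ran from −0.19 to 0.066 and turned positive without HGPS replicate 4, HGPS replicate 5 or 24-mo WT replicate 4.

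Relative to Sox10, some values changed sign, including values far from 0. With S100b in its place, 2 of 18 passed, and the reversed values between HGPS and 24-mo WT were −0.58 (Mbp), −0.21 (Pmp22), −0.55 (Mag), −1.25 (Cnp) and −1.18 (Prx). Those in HGPS against 2-mo WT were −0.86 (Pmp22), −0.78 (Cnp) and −0.96 (Prx), and at 24 mo they were 0.47 (Cnp) and 0.22 (Prx). With a prior count of 0.5, Mbp at 24 mo was −0.0056. Without single mice, Prx ran from −0.075 to 0.28 in HGPS, and at 24 mo Mbp ran from −0.028 to 0.29, Mag from −0.20 to 0.41 and Cnp from −0.23 to 0.12. In these runs 10 differences passed an adjusted p of 0.05, among them Ncmap between HGPS and 24-mo WT. Each run held only the comparisons with the group of the mouse left out, so its adjustment covered fewer than 18 tests. Fewer tests can lower an adjusted p by themselves, so these passes cannot be put down to the mouse left out.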
